A study of Mus musculus with 7 samples.

Results

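The Krtap genes encode the hair keratin-associated proteins. They were taken as all genes whose annotated symbol begins with Krtap, each measured by a probe set of its own, and 44 of the 19937 measured genes met that rule. By subfamily number 16 genes belong to the high sulfur class, 12 to the ultra-high sulfur class and 13 to the high glycine-tyrosine class, while Krtap16-3, Krtap31-1 and Krtap31-2 were left without a class. The genes fall into 21 subfamilies and lie on chromosomes 7 (5 genes), 10 (3), 11 (15) and 16 (21). A further 6 Krtap genes (Krtap2-4, Krtap4-8, Krtap4-9, Krtap4-13, Krtap9-1 and Krtap20-2) were measured only on probe sets that name several genes and are treated separately.

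The data are 7 Mouse Gene 1.0 ST arrays (Affymetrix) hybridised with RNA from tissue of mice that carry or lack Iqgap1, a scaffold for Ras-pathway kinases whose blockade in tumours is the subject of the series. The 4 groups were Iqgap1 knockout on day 0 (2 arrays) and on day 6 (2 arrays), and wild type on day 0 (1 array) and on day 6 (2 arrays). All mice were of a mixed C57BL/6 and 129 background, and topical 4OHT (4-hydroxytamoxifen, used to switch on tamoxifen-dependent proteins) is the agent given for every sample, day 0 included. The labels name no tamoxifen-dependent transgene, no body site and no age, and nothing in them says that replicates came from different mice. The p-values therefore measure no more than how these samples scatter, and that scatter may be technical.

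Keratin-associated proteins fill the space between the keratin filaments of the hair shaft and link them through the cysteines of the sulfur-rich classes. The high glycine-tyrosine proteins are small, poor in cysteine and made early in the differentiation of shaft cells, whereas many sulfur-rich proteins follow later in the cortex and cuticle. Hair shafts are built only in growing (anagen) follicles, so the transcripts of this family are a mark of follicles that produce hair.

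The sequence before the start of each gene is shown for 6 members. On the wild-type day 0 array 42 of 44 members exceeded all other arrays by at least 1 on the log2 scale, and 2 did not. Krtap8-1, Krtap6-1, Krtap15 and Krtap11-1 were among the genes with the highest excess on the wild-type day 0 array, and Krtap13 and Krtap5-3 were the exceptions. The 250 bases before the RefSeq start in GRCm38.p6 are printed 5′ to 3′ on the strand of the gene, and capitals mark matches on either strand to 4 motifs. TATATAA and the shorter form TATAAA are versions of the TATA box. The motif CTTTGAA is a version of the site that Lef1 and the other Tcf factors bind, and the motif TCGTAAA of the site of posterior Hox factors such as Hoxc13.
Krtap8-1, chr16:89487953-89488202, minus strand: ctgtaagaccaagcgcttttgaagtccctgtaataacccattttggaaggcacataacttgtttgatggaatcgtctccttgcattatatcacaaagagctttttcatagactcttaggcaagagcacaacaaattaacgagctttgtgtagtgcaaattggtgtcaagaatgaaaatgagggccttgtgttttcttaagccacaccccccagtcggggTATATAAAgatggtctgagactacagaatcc
Krtap6-1, chr16:89031449-89031698, plus strand: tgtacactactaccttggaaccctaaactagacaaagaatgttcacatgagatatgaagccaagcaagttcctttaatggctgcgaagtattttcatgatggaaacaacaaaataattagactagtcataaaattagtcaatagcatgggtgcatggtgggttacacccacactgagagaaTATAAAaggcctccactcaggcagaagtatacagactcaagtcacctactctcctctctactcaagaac
Krtap15, chr16:88828759-88829008, plus strand: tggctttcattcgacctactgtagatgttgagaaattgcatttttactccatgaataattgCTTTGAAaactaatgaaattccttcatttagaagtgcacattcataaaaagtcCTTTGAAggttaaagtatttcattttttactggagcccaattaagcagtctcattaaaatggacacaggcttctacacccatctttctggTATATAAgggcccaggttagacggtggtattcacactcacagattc
Krtap11-1, chr16:89571184-89571433, minus strand: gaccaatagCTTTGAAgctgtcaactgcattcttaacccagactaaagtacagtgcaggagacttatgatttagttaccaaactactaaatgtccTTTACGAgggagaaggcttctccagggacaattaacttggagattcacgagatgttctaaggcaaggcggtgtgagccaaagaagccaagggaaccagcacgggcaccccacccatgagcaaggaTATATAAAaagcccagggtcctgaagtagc
Krtap13, chr16:88751629-88751878, minus strand: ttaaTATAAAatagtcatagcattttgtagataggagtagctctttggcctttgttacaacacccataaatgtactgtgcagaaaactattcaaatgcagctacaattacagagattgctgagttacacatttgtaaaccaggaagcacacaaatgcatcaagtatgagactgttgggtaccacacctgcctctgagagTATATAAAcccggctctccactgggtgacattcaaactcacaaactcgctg
Krtap5-3, chr7:142201114-142201363, plus strand: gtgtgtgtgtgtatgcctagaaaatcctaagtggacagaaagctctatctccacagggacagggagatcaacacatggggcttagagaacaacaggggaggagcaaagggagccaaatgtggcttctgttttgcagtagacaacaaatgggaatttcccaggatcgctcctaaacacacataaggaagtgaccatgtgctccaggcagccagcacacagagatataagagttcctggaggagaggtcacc

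Of the 44 genes, 40 had such a window; Krtap1-3, Krtap7-1, Krtap10-10 and Krtap12-1 had none. TATATAA was present in 16 of the 40 windows (40%), against 3.04% of all 32851 windows of that length in the RefSeq table, and TATAAA in 31 (77.5%, against 12.4%). The motifs overlap, since TATATAA followed by an A contains TATAAA. The longer form occurred in 10 of 13 high sulfur and 6 of 12 high glycine-tyrosine windows but in 0 of 12 ultra-high sulfur windows, of which 10 held TATAAA. On the strand of the gene, the first base of the TATATAA match lay 29 to 73 bases before the start (median 36.0), and Krtap13-1 held a further match on the opposite strand, 148 bases before it. CTTTGAA was found in 7 windows (17.5%, against 4.46%), 5 of them of the high sulfur class; it occurred at 2 positions in Krtap15 and at 1 in Krtap11-1. TCGTAAA was found in 1 window, that of Krtap11-1 (2.5%, against 0.478%). CAATAAA, another posterior Hox form, was found in 0 (0%, against 4.2%). These are matches of letters only. Krtap13, which stayed low on every array, held TATATAA 51 bases before its start, and the Krtap5-3 window held none of the motifs.

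The arrays differ in ways that bear on every value below. Wild type at day 0 is a single array. That array and wild type day 6 replicate 1 had signal of Xist, which coats the inactive X chromosome (11.15 and 10.30 on the log2 scale), and the other 5 arrays had 3.55 to 4.03. Eif2s3y, Kdm5d and Uty, genes of the Y chromosome, ran the other way (7.14 to 9.61 on the 5 arrays and 3.50 to 4.25 on those with Xist signal). At day 0 the genotype, the single wild-type array and the Xist signal cannot be told apart. Iqgap1 itself was 9.02, 8.99, 8.58 and 8.67 on the knockout arrays and 9.94, 10.11 and 10.59 on the wild-type arrays, lower in every knockout array but not absent. The median of an array was 5.61 to 5.79 over all probe sets and 6.54 to 6.78 over the measured genes. The epidermal keratins Krt5 and Krt14, which mark basal keratinocytes, were between 11.71 and 12.89 on all 7 arrays; keratins of the layers above were less even and are given with the other gene lists.

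The Krtap genes were high on the wild-type day 0 array, intermediate on wild type day 6 replicate 1, and low on the other 5 arrays. The median over the 44 genes was 10.97 on the wild-type day 0 array, 5.98 on wild type day 6 replicate 1 and 4.36 on wild type day 6 replicate 2, as log2 values after RMA (robust multi-array average) normalization by the authors. On the knockout arrays it was 4.28 and 4.18 at day 0 and 4.43 and 4.42 at day 6. Replicate 2 of wild type at day 6 lay within the range of the knockout arrays, and replicate 1 lay above all of them. In the bulk tissue fewer cells of a type and less RNA per cell cannot be told apart.

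**Figure D1:**
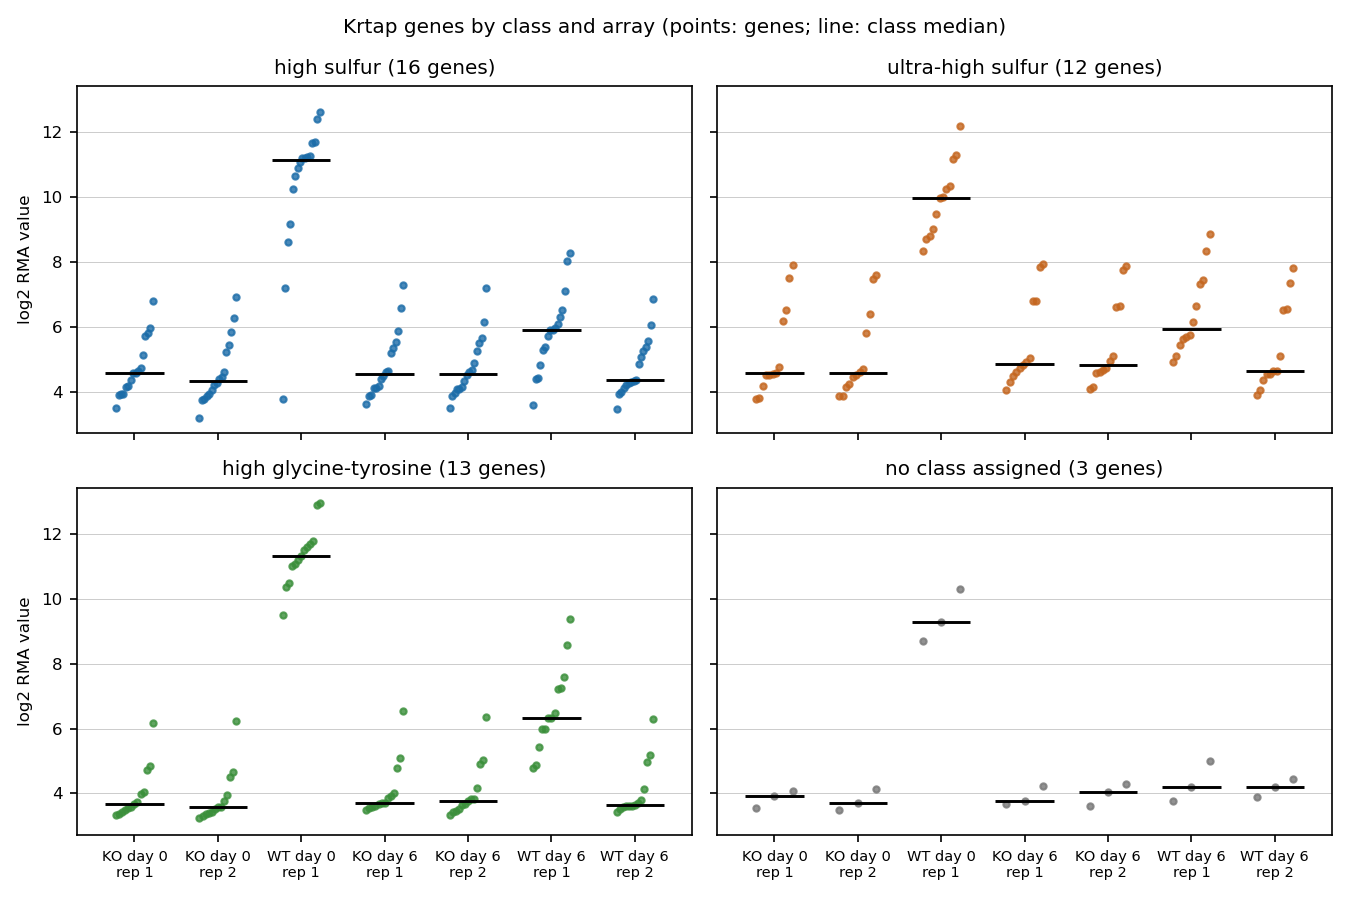
Log2 RMA value of each Krtap gene (points) on each of the 7 arrays, with a panel for each class and a line at the class median; KO is Iqgap1 knockout and WT is wild type. The high glycine-tyrosine median was 11.33 on the wild-type day 0 array, 6.33 on wild type day 6 replicate 1 and 3.56 to 3.76 on the other 5 arrays.

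Counted gene by gene, 43 of 44 Krtap genes were higher on the wild-type day 0 array than on all 6 others, an order that 20.3% of all genes shared. With a margin of at least 1 on the log2 scale it was 42 of 44, against 1.6% of all genes, and with a margin of at least 4 (16-fold) it was 28 of 44, against 0.356%. Krtap13 and Krtap5-3 were the only members under the margin of 1. Next in order came wild type day 6 replicate 1, which exceeded the 5 remaining arrays for 40 of 44 genes (33.4% of all genes), and by at least 1 for 21 of 44 (0.497% of all genes). Both steps held together for 39 of 44 members, against 9.03% of all genes.

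The excess of an array is given below as its log2 value minus the median of the 5 arrays without Xist signal. Over the 44 genes the median excess was 6.05 (66.3-fold, understated where the low values are at background) on the wild-type day 0 array and 1.11 (2.16-fold) on wild type day 6 replicate 1; over all genes these medians were 0.061 and 0.090. Among the 5 low arrays the values of a member spanned 0.13 to 1.01 from lowest to highest (median 0.39). The excess of 42 members on the wild-type day 0 array, 2.59 or more, was larger than the whole of that span. An excess of 4 or more on that array was seen for 115 genes, of which 36 were Krtap genes, 31.3% of those genes and 81.8% of the family.

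**Figure D2:**
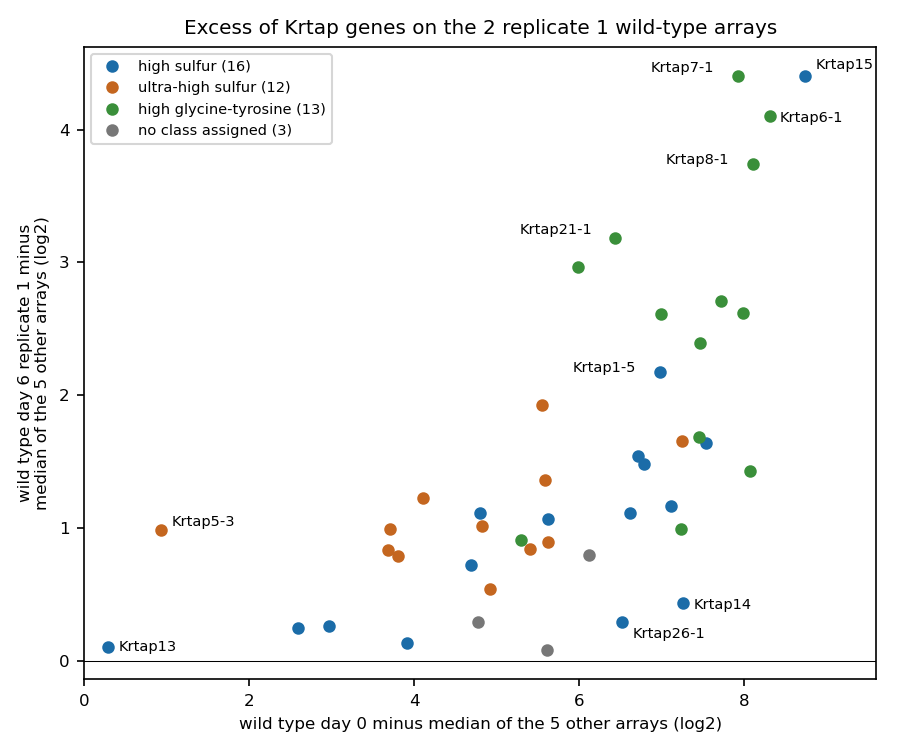
Excess of each Krtap gene on wild type day 6 replicate 1 (vertical axis) against its excess on the wild-type day 0 array (horizontal axis), both as log2 values over the median of the other 5 arrays, with colours for the classes. Krtap15, Krtap7-1 and Krtap6-1 have the 3 highest values on the vertical axis (4.41, 4.40 and 4.10), and Krtap13 sits near 0 on both.

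The high glycine-tyrosine genes, of subfamilies 6, 7, 8, 19 and 21, had a median excess of 7.47 (range 5.29 to 8.30) on the wild-type day 0 array and of 2.62 (0.91 to 4.40) on wild type day 6 replicate 1. Krtap8-1, the only measured gene of its subfamily, read 4.84 and 4.50 in knockout at day 0, 12.94 in wild type at day 0, 4.77 and 4.90 in knockout at day 6, and 8.58 and 5.17 in wild type at day 6. Krtap7-1, also alone in its subfamily, read in the same order 4.72 and 4.67, then 12.88, then 5.10 and 5.01, then 9.37 and 4.96. Both genes were high on the wild-type day 0 array, intermediate on the first wild-type day 6 replicate, and low on the 5 remaining arrays, where knockout and wild type day 6 replicate 2 lay close together.

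Krtap6-1 read 3.49 and 3.29 in knockout at day 0, 11.79 in wild type at day 0, 3.58 and 3.42 in knockout at day 6, and 7.59 and 3.59 in wild type at day 6. Its excess was 8.30 on the wild-type day 0 array and 4.10 on wild type day 6 replicate 1, both against low values that are all under 4.25, the top of the background readings described below. Krtap6-2, with the second smallest spread over the arrays in the class, read 3.34, 3.35, 9.50, 3.55, 3.52, 6.49 and 3.52 in that order of arrays. All 4 members of subfamily 6 (Krtap6-1, Krtap6-2, Krtap6-3 and Krtap6-5) had an excess of at least 2 on both high arrays. The 6 members of subfamily 19 had a wild-type day 0 excess of 5.29 (Krtap19-4) to 8.06 (Krtap19-1), but only Krtap19-2 and Krtap19-3 passed 2 on wild type day 6 replicate 1 (2.62 and 2.71).

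Krtap19-4 read 6.16 and 6.24 in knockout at day 0, 11.59 in wild type at day 0, 6.55 and 6.36 in knockout at day 6, and 7.21 and 6.30 in wild type at day 6. Krtap19-9b read 3.98 and 3.76, 11.03, 3.70 and 3.83, and 4.78 and 3.79 in the same order. Krtap21-1, the only measured gene of its subfamily, read 4.06 and 3.95, 10.49, 4.01 and 4.15, and 7.24 and 4.14. Wild type day 6 replicate 1 stood above replicate 2 for all 3 genes, by the most for Krtap21-1.

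The high sulfur genes, of subfamilies 1, 3, 10 to 15, 24 and 26, had a median excess of 6.57 (range 0.29 to 8.73) on the wild-type day 0 array and of 1.09 (0.11 to 4.41) on wild type day 6 replicate 1. Krtap15 had an excess of 8.73 on the wild-type day 0 array, the largest in the class. It read 3.89 and 3.77 in knockout at day 0, 12.62 in wild type at day 0, 3.88 and 3.87 in knockout at day 6, and 8.29 and 3.91 in wild type at day 6. The 5 low arrays of Krtap15 spanned 0.14, and both high arrays lay far outside that span. All 5 were under 4.25, the level that Xist and the Y-linked genes reached without signal, so this excess is taken against background and gives no exact fold. Only Krtap15 and Krtap1-5, among 16 high sulfur genes, exceeded 2 on wild type day 6 replicate 1, against 9 of 13 high glycine-tyrosine genes and 0 of 12 ultra-high sulfur genes.

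Krtap11-1 read 4.74 and 4.60 in knockout at day 0, 12.42 in wild type at day 0, 5.21 and 4.88 in knockout at day 6, and 6.52 and 5.06 in wild type at day 6. Krtap14 read 3.92 and 3.92, 11.22, 4.38 and 3.97, and 4.40 and 4.29 in the same order. Krtap26-1 read 4.13 and 4.05, 10.65, 4.11 and 4.13, and 4.43 and 4.34. These 3 genes were all high on the wild-type day 0 array, but on wild type day 6 replicate 1 Krtap14 and Krtap26-1 stood only 0.02 and 0.08 above the highest low array, whereas Krtap11-1 stood 1.32 above it.

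The genes of subfamilies 3 and 1 on chromosome 11 moved by different amounts. Krtap3-1 read 6.79 and 6.91 in knockout at day 0, 11.71 in wild type at day 0, 7.29 and 7.20 in knockout at day 6, and 8.02 and 6.87 in wild type at day 6. Krtap3-2 read 5.72 and 6.27, 8.60, 5.52 and 5.64, and 5.91 and 5.25 in the same order. Krtap1-3 read 5.97 and 5.83, 11.66, 6.57 and 6.14, and 7.11 and 6.05. Krtap3-2 was the one of the 3 in which wild type day 6 replicate 1 did not exceed the low arrays, since its highest low value came from knockout at day 0. Of the chromosome 10 genes, Krtap10-4 read 5.81 and 5.45, 10.26, 5.87 and 5.52, and 6.29 and 5.57. Krtap10-10 read 5.13 and 5.22, 9.17, 5.35 and 5.25, and 5.39 and 5.38, and Krtap12-1 read 4.64 and 4.22, 7.18, 4.59 and 4.68, and 4.84 and 4.27. The excess on the wild-type day 0 array of these 3 was 4.69, 3.92 and 2.59, all under the class median.

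The ultra-high sulfur genes, of subfamilies 4, 5, 9 and 17, had a median excess of 4.87 (range 0.94 to 7.25) on the wild-type day 0 array and of 0.99 (0.54 to 1.93) on wild type day 6 replicate 1. Krtap9-3 read 6.51 and 6.39 in knockout at day 0, 12.19 in wild type at day 0, 6.79 and 6.65 in knockout at day 6, and 7.46 and 6.57 in wild type at day 6. Krtap17-1 read 7.49 and 7.47, 11.18, 7.84 and 7.74, and 8.33 and 7.34. Krtap4-16, whose low values are also all under 4.25, had an excess of 7.25, with 3.76 and 3.88, 11.29, 4.04 and 4.16, and 5.70 and 4.07. In each of these genes the wild-type day 0 array was highest and wild type day 6 replicate 1 second.

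Krtap4-1 read 4.55 and 4.70 in knockout at day 0, 10.25 in wild type at day 0, 5.03 and 4.74 in knockout at day 6, and 6.63 and 4.63 in wild type at day 6. Krtap4-2 read 4.19 and 4.15, 9.96, 4.48 and 4.62, and 5.74 and 4.37. Krtap5-4 read 4.51 and 4.46, 9.48, 4.60 and 4.56, and 5.10 and 4.56. All 3 followed the order of the class. Krtap5-1 read 6.19 and 5.81, 10.34, 6.80 and 6.62, and 7.33 and 6.54. The 3 genes without a class followed the wild-type day 0 pattern too: Krtap16-3 read 4.06 and 4.12, 10.31, 4.24 and 4.27, and 4.99 and 4.19. Krtap31-1 read 3.56 and 3.70, 9.28, 3.67 and 3.61, and 3.75 and 3.89, and Krtap31-2 read 3.92 and 3.50, 8.69, 3.76 and 4.03, and 4.21 and 4.45. In both subfamily 31 genes the second wild-type day 6 replicate was above the first, unlike in the other 42 genes.

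**Figure D3:**
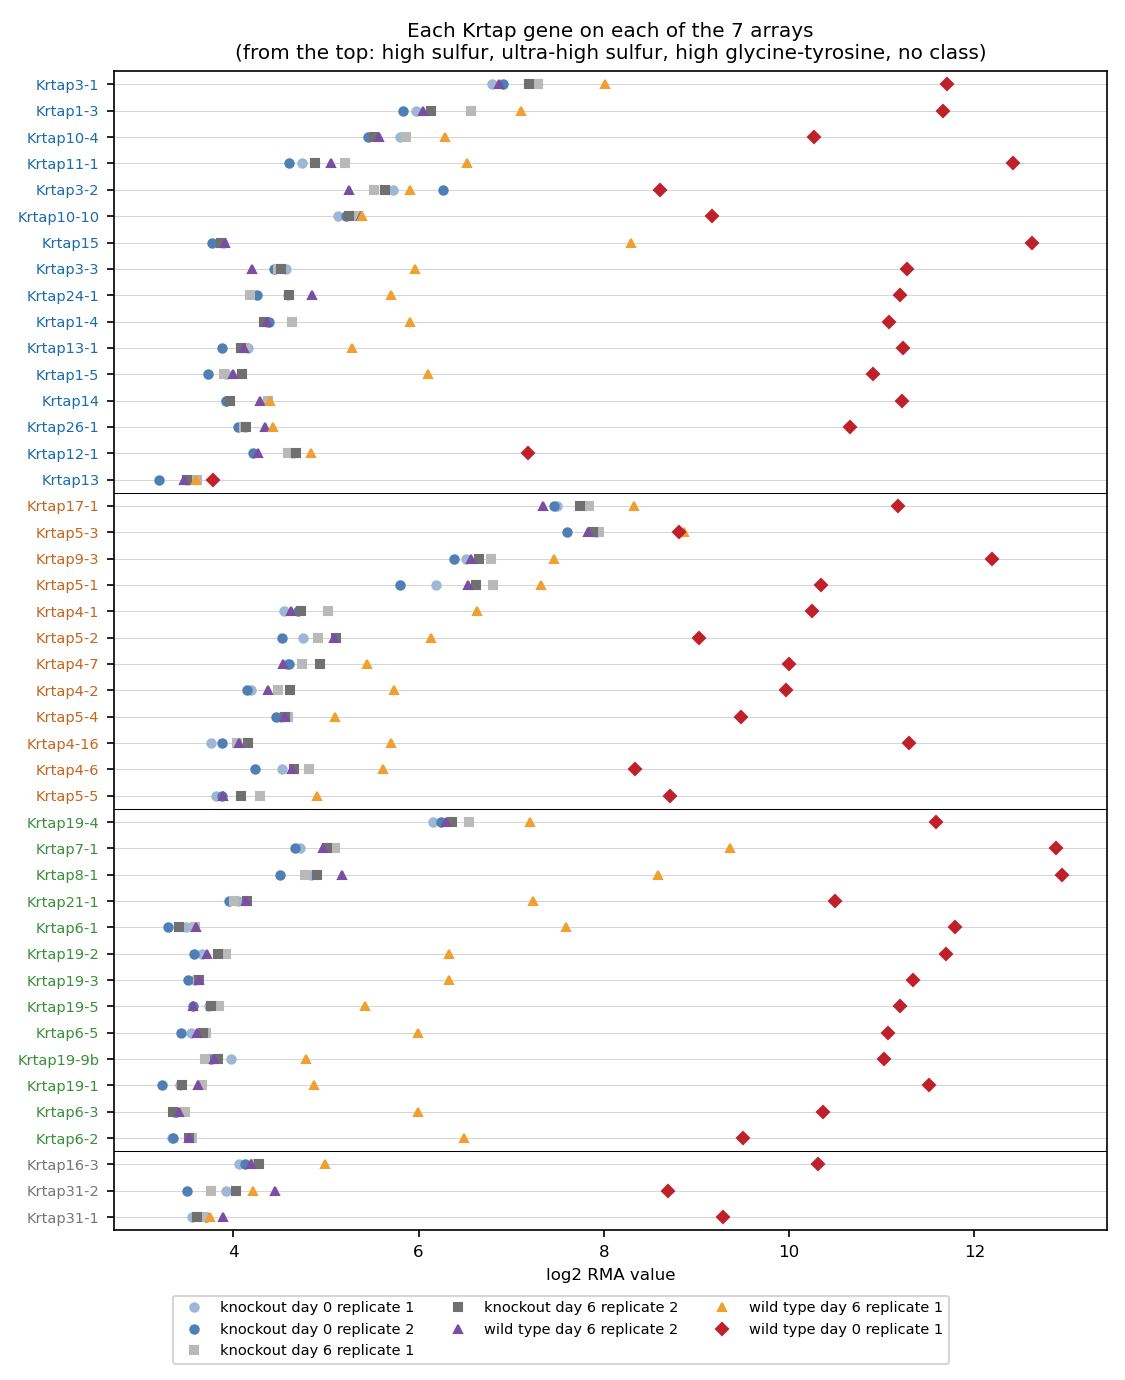
Log2 RMA value of each of the 44 Krtap genes (lines of the plot) on each of the 7 arrays (symbols), in blocks from high sulfur at the top through ultra-high sulfur and high glycine-tyrosine to the genes with no class. The symbol of the wild-type day 0 array lies to the right of all others for 43 genes, and Krtap13 and Krtap5-3 lack a gap to the other arrays.

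Krtap13 and Krtap5-3 did not follow the family. Krtap13 read 3.50 and 3.20 in knockout at day 0, 3.79 in wild type at day 0, 3.61 and 3.50 in knockout at day 6, and 3.60 and 3.47 in wild type at day 6. Its wild-type day 0 value was the highest of the 7 but stood only 0.29 above the median of the low arrays. Krtap5-3 read 7.92 and 7.60, 8.82, 7.95 and 7.88, and 8.87 and 7.83 in the same order, with both arrays with Xist signal about 1 above the rest (0.94 and 0.99). A probe set that names Krtap5-3 together with Krtap5-2 had an excess of 3.27 on the wild-type day 0 array. Xist and the Y-linked genes reached up to 4.25 on arrays without their signal, a guide to the background, although probe sets differ in it. For 16 members all 5 low arrays were at or under that level, for 26 at least 1 was, and for 18 none was (low values are compressed on this scale, so folds from them are understated).

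In the order of the measured members on chromosome 16, Krtap13 lies between Krtap13-1 and Krtap14, whose excess on the wild-type day 0 array was 7.11 and 7.25. On chromosome 7 Krtap5-3 lies between Krtap5-2 (4.11) and Krtap5-5 (4.82). The median excess was 7.25 for the 21 genes of chromosome 16, 5.59 for the 15 of chromosome 11, 4.11 for the 5 of chromosome 7 and 3.92 for the 3 of chromosome 10. On wild type day 6 replicate 1 an excess of 2 or more was found for 10 genes of chromosome 16, for 1 of chromosome 11 (Krtap1-5) and for 0 of the others. Chromosome and class overlap, since all 13 high glycine-tyrosine genes lie on chromosome 16.

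**Figure D4:**
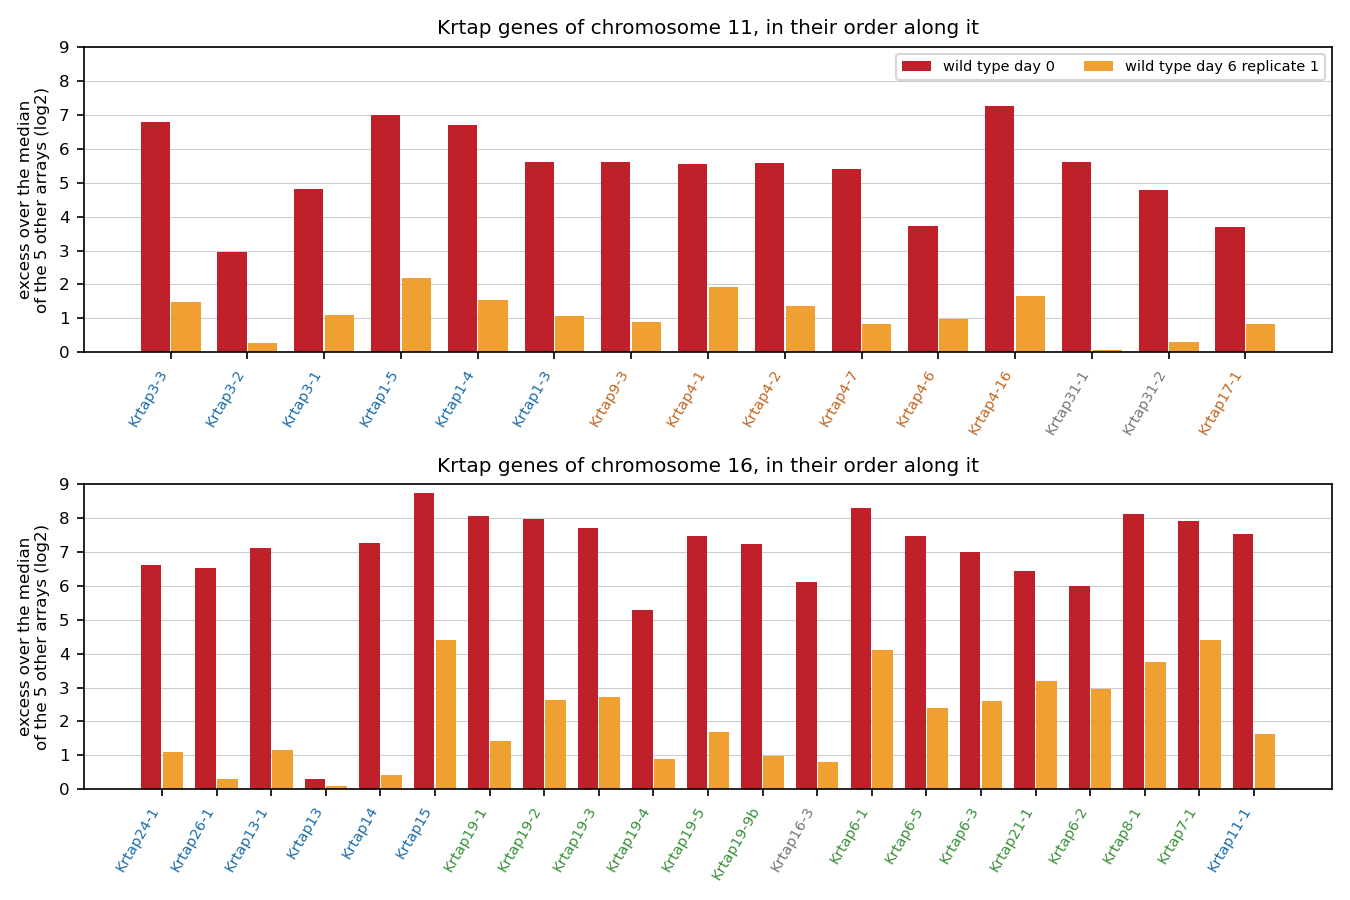
Excess of each Krtap gene over the median of the 5 low arrays (log2), for the wild-type day 0 array and for wild type day 6 replicate 1, in the order of the genes along chromosomes 11 and 16. The bar of Krtap13 on the wild-type day 0 array (0.29) stands between those of Krtap13-1 (7.11) and Krtap14 (7.25).

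Some Krtap copies are so alike that probe sets name several at once, and 13 such probe sets exist for the family. All 13 were highest on the wild-type day 0 array, with an excess of 3.27 to 6.40 (median 4.89), and all 13 were higher on wild type day 6 replicate 1 than on the 5 low arrays (excess 0.81 to 3.98, median 1.32). The 6 Krtap genes measured only there can thus be followed no further than these sets. The counts below leave these probe sets out, and members of subfamilies 4, 5, 6 and 10 that also appear on them may share signal with near copies.

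The 7 comparisons of the design were tested with limma over all 19937 genes, and a gene was called at a limma adjusted p under 0.05. Wild type at day 0 entered as 1 array, with its error taken from the other groups, so every call against it compares other arrays with that array. Comparisons that share it, or share other groups, are not independent.

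Krtap expression was lower in knockout than in wild type at day 0 for 42 of 44 genes, and 0 were higher. Of all genes 5.86% were called lower and 8.53% higher in this comparison. Both knockout arrays lay below the wild-type array for 44 of 44 members, against 51.6% of all genes. The median log2 difference was -6.19 over the 44 genes and -0.093 over all genes. By class 15 of 16 high sulfur, 11 of 12 ultra-high sulfur, 13 of 13 high glycine-tyrosine and 3 of 3 unclassed genes were called. Krtap26-1 had a difference of -6.56 ± 0.18 (SE; limma adjusted p = 4.89e-05), Krtap14 of -7.30 ± 0.23 (limma adjusted p = 5.51e-05) and Krtap15 of -8.79 ± 1.46 (limma adjusted p = 0.0124). With limma's trend and robust options 37 genes were called, and Krtap15, Krtap21-1, Krtap6-1, Krtap6-2 and Krtap7-1 were not. The 2 genes not called were Krtap13, at -0.44 (limma adjusted p = 0.218), and Krtap5-3, at -1.06 (limma adjusted p = 0.131). The comparison sets 2 arrays against 1, and it could not be fitted without that array.

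At day 6 the genotypes did not pass the test for any Krtap gene: 0 of 44 were called in either direction by limma, as were 0% of all genes, and 1 Krtap gene (Krtap24-1, -0.89 ± 0.31) had an unadjusted p under 0.05. The median was -0.51. Both knockout arrays were below both wild-type arrays for 8 of 44 genes, against 15.7% of all genes. The wild-type replicates differed from each other by a median of 1.06 (replicate 1 minus replicate 2), with replicate 1 higher in 42 of 44 genes. Against replicate 2 alone, the array without Xist signal, the median Krtap difference of knockout minus wild type was 0.074. Against replicate 1 alone the median was -1.07.

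In wild type 41 of 44 Krtap genes were lower at day 6 than at day 0 and 0 were higher, where 3.61% of all genes were called lower and 3.51% higher. The median log2 difference was -5.32 over the 44 genes. The difference was -6.27 ± 0.18 for Krtap26-1 (limma adjusted p = 5.12e-05), -6.88 ± 0.23 for Krtap14 (limma adjusted p = 7.48e-05), -5.47 ± 0.19 for Krtap31-1 (limma adjusted p = 7.48e-05) and -6.07 ± 1.15 for Krtap8-1 (limma adjusted p = 0.0262). Krtap7-1, with a difference of -5.72 ± 1.47 (limma adjusted p = 0.0712), missed the threshold together with Krtap13 and Krtap5-3. Krtap7-1 was called with median-centred arrays, whereas Krtap8-1 was not called with limma's trend and robust options (34 genes called) or without either knockout day 6 array (36 in each case). The wild-type day 6 replicates of Krtap7-1 read 9.37 and 4.96. Against replicate 1 alone the median was -4.38 and against replicate 2 alone -6.05.

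In knockout the family was low on both days. No Krtap gene was called by limma (0 of 44, where 16.3% of all genes were called in either direction), and 1 had an unadjusted p under 0.05. The median difference was 0.19 over the 44 genes and 0.10 over all genes. Krtap5-1 had the largest difference, 0.71 ± 0.28 (limma adjusted p = 0.153), with 6.19 and 5.81 at day 0 and 6.80 and 6.62 at day 6. It was called when the knockout arrays were fitted alone (limma adjusted p = 0.0475). Both day 6 arrays were above both day 0 arrays for 25 of 44 members, among them 11 of 12 ultra-high sulfur genes, where 42.2% of all genes showed that order. They were below for 1 member, Krtap3-2, where 25.2% of all genes were.

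The day change differed between the genotypes for 35 of 44 Krtap genes, all with a higher (less negative) change in knockout, where 1.76% of all genes were called in that direction and 1.35% in the other. The median difference between the changes was 5.51. Of the classes, 14 of 16 high sulfur, 11 of 12 ultra-high sulfur, 7 of 13 high glycine-tyrosine and 3 of 3 unclassed genes were called. Krtap26-1 had the smallest p, with a difference of 6.30 ± 0.24 (limma adjusted p = 0.000256). The 9 genes not called were Krtap13, Krtap5-3 and 7 with a large excess on wild type day 6 replicate 1: Krtap6-1, Krtap6-2, Krtap6-3, Krtap7-1, Krtap8-1, Krtap15 and Krtap21-1. Krtap8-1, for example, had a difference of 6.23 ± 1.49 (limma adjusted p = 0.0847). Leaving out either wild-type day 6 replicate leaves 1 array in that group, so the spread between its replicates drops out of the error. The differences of these 7 were then 6.17 to 8.75 without replicate 1 and 3.21 to 4.53 without replicate 2. Without knockout day 6 replicate 1 the count was 20.

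Over both genotypes 0 of 44 Krtap genes were called for day 6 against day 0 (11.5% of all genes were called in either direction), with a median of -1.99 and 1 unadjusted p under 0.05 (Krtap3-2, -1.46 ± 0.53). No member had all 4 day 6 arrays on one side of all 3 day 0 arrays, an order found below in 9.66% and above in 11.9% of all genes. Without the wild-type day 0 array the median was 0.19. Over both days 0 of 44 were called for knockout against wild type, as were 0% of all genes, with a median of -2.74 and 29 unadjusted p under 0.05. That median was -0.51 without the wild-type day 0 array and 0.074 without both arrays with Xist signal. Without wild type day 6 replicate 2 it was -3.59, a fit in which every wild-type array has Xist signal and no knockout array has it.

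Many other genes of the hair follicle were also highest on the wild-type day 0 array, though not all in each list. The counts for each list are to be read against all genes, of which 20.3% were highest on the wild-type day 0 array, 33.4% were higher on wild type day 6 replicate 1 than on the low arrays, 5.86% were called lower in knockout at day 0 and 3.61% were called lower at day 6 in wild type. Of 13 measured hair shaft keratins, the filament proteins that the keratin-associated proteins surround, 13 were highest on the wild-type day 0 array (median excess 5.13) and 12 were higher on wild type day 6 replicate 1 than on the low arrays (median excess 0.70). At day 0 all 13 were called lower in knockout, and 13 of 13 were lower at day 6 in wild type. Krt31, an acidic keratin of the cortex, read 4.57 and 4.63 in knockout at day 0, 11.88 in wild type at day 0, 4.87 and 4.86 in knockout at day 6, and 5.72 and 4.69 in wild type at day 6. Krt33a read 5.04 and 4.73, 12.64, 4.79 and 4.72, and 6.43 and 4.60. Both keratins had the order of arrays seen in the Krtap genes.

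All 10 genes of the inner root sheath, the layer that moulds the shaft, were highest on the wild-type day 0 array, and 10 of 10 were called lower in knockout at day 0. On wild type day 6 replicate 1, 7 of 10 were higher than on the low arrays, by unlike amounts. The excess ran from -0.27 (Krt28) to 2.75 (Krt25), with a median of 0.72, and Krt26 (0.34) was among the 7. Krt25, Krt27 and Krt71 read 7.53, 7.49 and 7.73 there, against 4.67 to 5.72 on the low arrays. Krt26 and Krt28, which read 11.34 and 11.35 on the wild-type day 0 array, were at 4.27 and 3.64 on wild type day 6 replicate 1 (this contrast was picked after the values were seen). Of 20 regulators of the hair matrix, the dividing cells at the follicle base, 13 were highest on the wild-type day 0 array and 11 were called lower in knockout at day 0. Hoxc13, a homeobox gene that drives hair keratin genes, read 6.60 and 6.19, 10.04, 6.43 and 5.50, and 7.90 and 5.63 (chosen after its values were seen). Its excess on wild type day 6 replicate 1 (1.71) was the highest of the 20. Only 6 of the 20 were higher there than on the low arrays, and the median excess of the list there was -0.12. On the wild-type day 0 array the excess was negative for Ovol1 (-0.27), Notch1 (-0.32), Jag1 (-0.42), Prdm1 (-0.98) and Wnt5a (-1.10). The median it is taken over mixes both days. Notch1 and Jag1 were below both knockout day 0 arrays there. Ovol1, Prdm1 and Wnt5a were above both, and higher still on every day 6 array. Wnt5a read 7.47 and 6.84 in knockout at day 0, 8.86 in wild type at day 0 and 9.97 to 10.60 at day 6.

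Of 15 other structural genes of the shaft 10 were called lower in knockout at day 0, but only 4 were higher on wild type day 6 replicate 1 than on the low arrays. Dsg4, a desmosomal cadherin of the shaft, was called (-4.37) but differed by day too. It read 6.87 and 6.65, 11.13, 4.27 and 4.12, and 4.51 and 3.92. Tgm3 and Psors1c2 were called yet read 10.24 to 11.45 and 8.97 to 9.57 at day 6. The wild-type day 0 excess was negative for Dsc2 (-1.40), Pkp1 (-1.33) and Lgals7 (-0.08). Of these only Pkp1 was lowest on that array. Dsc2 and Lgals7 were above both knockout day 0 arrays there, and higher still on every day 6 array. Dsc2 read 7.79 and 9.15 in knockout at day 0, 10.07 in wild type at day 0 and 11.47 to 11.62 at day 6. Genes of pigment cells of growing follicles were highest on the wild-type day 0 array in 11 of 11 cases (median excess 4.06), but on wild type day 6 replicate 1 their median excess was 0.25. Dct, a melanin synthesis enzyme, read 6.71 and 6.23, 11.60, 7.27 and 7.29, and 7.02 and 6.02. The genes of resting follicles were highest on the wild-type day 0 array in 4 of 10 cases, and the genes of the epidermis between follicles in 0 of 8 (median excess -0.54). Krt1 and Krt10, keratins of the layers above the basal cells, were lowest on wild type day 6 replicate 1 (9.49 and 11.14) and next lowest on the wild-type day 0 array (10.39 and 11.81), with 11.91 to 12.27 and 12.29 to 12.56 on the low arrays. Krt77 and Flg2 followed the day, with 12.02 to 12.89 and 9.82 to 10.77 at day 0 against 5.95 to 6.50 and 5.55 to 7.94 at day 6. Sebaceous gland genes had a median level of 10.57 and 10.55 in knockout at day 0, 9.35 in wild type at day 0, 4.97 and 9.38 in knockout at day 6, and 5.38 and 9.77 in wild type at day 6. They were thus low on replicate 1 of both genotypes at day 6. Genes of skeletal muscle, a tissue that lies under the skin, were highest on the wild-type day 0 array in 0 of 15 cases and adipocyte genes in 1 of 11. The part of these cell types in the Krtap values was not tested.

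**Figure D5:**
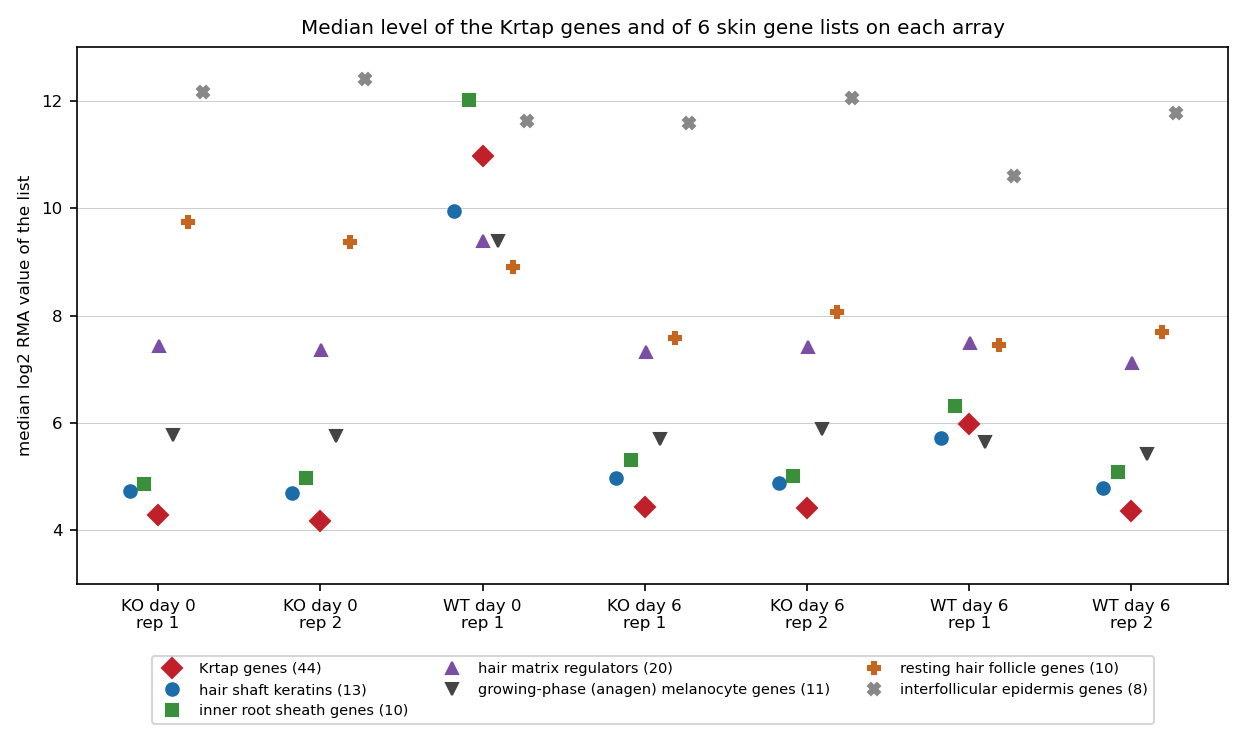
Median log2 RMA value of the Krtap genes and of some of the other gene lists on each of the 7 arrays. KO is Iqgap1 knockout and WT is wild type. The lists of other shaft structural genes, sebaceous gland, skeletal muscle and adipocytes are not shown. Points stand for the median of a list. The Krtap median is 10.97 on the wild-type day 0 array, where the hair shaft keratins (9.95) and the inner root sheath genes (12.01) are also at their highest, and the interfollicular epidermis stays between 10.60 and 12.41 on all arrays.

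Likeness to the family was measured as Pearson's r between a gene and the mean of the 44 Krtap genes over the 7 arrays, which share the single high array. The 10 named genes outside the family with the highest r were Krt34 (0.997), Krt33a, Nxf7, Krt71, Krt31, Zfp729b, Zc4h2, Krt27, Krt25 and Tchhl1 (0.992). Of these 10, 6 are keratins of the shaft or the inner root sheath and Tchhl1 is a relative of trichohyalin. Nxf7, Zfp729b and Zc4h2 had the shape with a smaller range: Zc4h2 read 5.93 and 5.86, 7.10, 5.91 and 5.92, and 6.07 and 5.86. With 7 arrays, and 1 of them far from the rest, r says mostly where that array lies.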

How the data were processed

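Tissue was macerated for an RNeasy extraction and the RNA amplified with MessageAmp III, per the labels' protocols. The authors deposited log2 values. RMA and R 2.11.1 are named per the submitters' processing notes, and the log2 scale was read from their range (2.37 to 13.38). Other settings and batches: not given in the sources used here. The number of arrays limits the precision.

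Of 34760 probe sets, 21640 name 1 gene, 1321 several and 11799 none in the platform's table. Each gene was read from the probe set naming it alone with the highest mean on the 7 arrays, leaving 19937 genes; no Krtap gene had more than 1 such probe set. All 44 Krtap genes matched RefSeq (GRCm38.p6) by gene identifier, and 0 symbols changed. Classes follow the subfamily numbers.

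The tests used lmFit and eBayes of limma 3.58.1 under R 4.3.3 (two-sided, Benjamini-Hochberg over 19937 genes, threshold 0.05). The 2 comparisons over both days or both genotypes came from an additive model, with 4 residual degrees of freedom, and the other 5 from a model of the 4 groups, with 3. Errors are limma's moderated standard errors. The fits were tested on simulated data.

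The members and gene lists were chosen with earlier results of these data known. Members with values on every array are, in each class, the 5 with the highest mean, the 3 with the largest and the 2 with the smallest standard deviation, and the 8 with the smallest p in a comparison with more than 15 calls. Named genes outside the family are up to 4 of each list by mean and 4 by p, the 10 most alike, and those marked as chosen later. Alternatives were limma's trend and robust options, a mean log2 value of at least 5, median-centred arrays, all probe sets, the mean of a gene's probe sets, only the groups compared, the replicate number as a block, and leaving out each array or both with Xist signal. Same-numbered replicates had deviations from their group means that correlated at 0.086, 0.037 and 0.23 across genes. The labels do not say that the numbers pair samples.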

Additional observations from a re-analysis of the deposited data

Results flagged for a closer look

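The day change differed between knockout and wild type, by the test of that difference itself (limma over all 19937 genes), for 35 of 44 Krtap genes. The 8 with the smallest p had the following differences, as the log2 day change in knockout minus that in wild type. It was 6.30 for Krtap26-1, 7.13 for Krtap14 and 3.91 for Krtap10-10 of the high sulfur class. It was 4.74 for Krtap5-4 of the ultra-high sulfur class and 6.63 for Krtap19-9b of the high glycine-tyrosine class. It was 5.48 for Krtap31-1, 4.55 for Krtap31-2 and 5.88 for Krtap16-3, which have no class. In all 8 the single wild-type day 0 array was the highest of the 7, and the difference could not be fitted without it.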

How the results depend on the processing

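No result turned its direction past the threshold, and the 8 genes with the smallest p in each comparison with calls passed in the 295 refits that tested them. The filter at a mean log2 value of at least 5 left Krtap19-9b, Krtap31-1 and Krtap31-2 untested in the other 9. Counts stayed within 1.5 times and medians within the replicate SD in 175 refits and moved further in 17, all of them by leaving out arrays or whole groups. Some of the 175 could not move the medians. The trend and robust options change only the error, and averaging a gene's probe sets changed no Krtap value, since each had a single one. For day in wild type, genotype at day 0 and the difference in the day change (41, 42 and 35 calls), limma's trend and robust options left 34, 37 and 30 calls, all probe sets 37, 42 and 29 of the 44 genes, and the filter, which tested 35, 34, 34 and 29. For day over both genotypes, leaving out 1 array at a time gave medians of -2.59 to 0.19, the upper one without wild-type day 0; without both arrays with Xist signal the median was 0.19 and 1 gene was called (Krtap5-1, also the only gene in the next count of 1). For genotype over both days the medians were -3.59 to -0.51 and the counts 0 to 7; without both arrays with Xist signal the median was 0.074 and 0 genes were called. For day in knockout the counts were 0 to 1, and 1 with only the groups compared or without both arrays with Xist signal. Leaving out 1 array at a time, for day in wild type the medians were -6.05 to -4.38 and the counts 36 to 42. For genotype at day 6 the counts were 0 to 11, and at day 0 they were 42 to 43. The 11 arose only without wild type day 6 replicate 2, and all were lower in knockout (-4.41 to -2.11). That refit set the single remaining wild-type day 6 array, which has Xist signal, against knockout arrays without it. The spread between the wild-type replicates then drops out of the error, so no conclusion is drawn from this count. For the difference in the day change the medians were 4.62 to 6.23 and the counts 20 to 42. With the replicate number as a block the counts were 0, 0, 0, 38, 0, 42 and 35 for the comparisons in that order of factors (day, genotype, day in knockout, day in wild type, genotype at day 6, genotype at day 0, difference), with medians of -1.69, -2.56, 0.19, -4.97, -0.51, -5.83 and 5.26; the samples share only a number. Day in wild type, genotype at day 0 and the difference in the day change could not be fitted without the wild-type day 0 array, so their calls rest on it. The cause of these changes was not tested.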
